A study of Mus musculus with 4 samples.

Results

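Expression of 4 simple keratin genes and 6 genes for transcription factors of the trophectoderm was followed in mouse embryonic stem cells depleted of Exosc3, part of the core of the exosome, which degrades RNA. The keratins are Krt7, Krt8, Krt18 and Krt19, and the regulators are Hand1, Ascl2, Cdx2, Elf5, Gata3 and Tead4. Members were taken by gene symbol from the deposited table, and 9 of the 10 had a row among its 22883 rows. Tead4 had no row under that symbol and is not analysed here. The cells were clones of the V6.5 embryonic stem cell line with a conditional knockout of Exosc3 (Exosc3 CKO), grown without feeder cells. The Exosc3-depleted group (2 libraries) was grown without doxycycline for 3 days. The Exosc3-present group (2 libraries) was kept in 0.1 µg/ml doxycycline, so doxycycline and Exosc3 changed together and cannot be told apart. Both groups carry the same knockout alleles. The labels do not say which clones or cultures gave the replicates, and p-values here weigh differences only against library-to-library spread, which may be technical.

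Keratins are the intermediate filament proteins of epithelia and assemble as pairs of 1 type I and 1 type II chain. Krt8 and Krt7 are type II chains, Krt18 and Krt19 are type I chains, and the Krt8 and Krt18 pair is the first to appear in the mouse embryo, in the trophectoderm. The trophectoderm is the outer epithelium of the blastocyst and gives rise to the placenta. Tead4 acts at the top of its regulators and, with YAP, turns on Cdx2 and Gata3, whereas Elf5 and Eomes keep trophoblast stem cells in their state and Hand1 and Ascl2 act in later trophoblast. Embryonic stem cells come from the inner cell mass, where Pou5f1 holds Cdx2 down.

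The 3 keratin genes on chromosome 15 share a cluster of genes, and their start regions are shown because the genes moved together, with Krt42 as a keratin that moved the other way. Sequences are from RefSeq (GRCm38.p6), run from 150 bases before to 25 bases after the annotated start, 5′ to 3′, and capitals mark matches to the motifs named after them. They lie at chr15:101412253-101412427 on the plus strand for Krt7, chr15:102004318-102004492 on the minus strand for Krt8, chr15:102028066-102028240 on the plus strand for Krt18 and chr11:100269927-100270101 on the minus strand for Krt42.
Krt7: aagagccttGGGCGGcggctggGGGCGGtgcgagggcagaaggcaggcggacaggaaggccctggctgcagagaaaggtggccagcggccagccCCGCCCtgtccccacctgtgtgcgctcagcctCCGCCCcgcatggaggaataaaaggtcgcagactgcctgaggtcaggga
Krt8: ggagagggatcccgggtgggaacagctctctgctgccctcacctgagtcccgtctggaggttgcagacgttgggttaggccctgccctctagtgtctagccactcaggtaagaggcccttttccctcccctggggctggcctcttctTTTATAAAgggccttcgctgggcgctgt
Krt18: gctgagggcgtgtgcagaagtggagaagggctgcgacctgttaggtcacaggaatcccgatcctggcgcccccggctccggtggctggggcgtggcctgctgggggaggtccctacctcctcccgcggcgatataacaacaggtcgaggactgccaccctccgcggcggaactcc
Krt42: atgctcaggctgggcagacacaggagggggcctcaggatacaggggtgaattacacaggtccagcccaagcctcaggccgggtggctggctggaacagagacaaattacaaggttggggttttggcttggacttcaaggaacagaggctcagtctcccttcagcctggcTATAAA

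A set of 8 motifs was searched on both strands of the whole RefSeq window, 250 bases before to 50 after the start. They were TGANTCA for AP-1, GGGCGG for the GC box, TATAAA for the TATA box, GGAATG for TEAD factors, CCGGAAG for ETS factors, CAGCTG for the E-box, AGATAA for GATA factors and TTTATG for CDX factors. The Krt7 window held 4 GC boxes, a motif found in 35.7% of all 32851 windows of the same table. The Krt8 window held 2 overlapping TATA box matches, 1 on each strand (13.6% of all windows hold this motif), 1 E-box (16.3%) and 1 GATA match (11.2%). The Krt18 window held none of the 8 motifs, so the 3 windows had no searched motif in common. The Krt42 window held 1 TATA box match, at the very end of the printed stretch and so after the annotated start. The overlapping TATA box matches of Krt8 span its annotated start. Among the regulators, Ascl2 and Gata3 held a GC box, Cdx2, Elf5 and Gata3 an E-box, and Elf5 a TEAD and a CDX match (14.7% and 11.9% of all windows). AP-1 (7.81% of windows) and ETS (8.86%) were found in none of the 7 members with a window, and Krt19, Hand1 and Tead4 had no entry. These are letter matches in a short window and say nothing of binding.

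Values are FPKM, the authors' fragments scaled to gene model length and library depth. Library totals, recovered from the spacing of the values, were 38095698 and 41968325 fragments in the Exosc3-depleted libraries and 60851774 and 55233386 in the Exosc3-present libraries. Fragments recovered in the listed rows came to 14932813 and 17105630 in Exosc3-depleted and 28422715 and 26980832 in Exosc3-present libraries, a smaller part of the total after depletion. FPKM and the rates over depth given below are per total, not per fragment in these rows. Exosc3 itself was at 0.635 and 0.691 FPKM in Exosc3-depleted cells and 24.2 and 23.2 FPKM in Exosc3-present cells, a fitted log2 difference of -4.38. The test was limma on log2(FPKM + 0.5) over the 9336 rows averaging 0.5 FPKM or more, with Benjamini-Hochberg adjustment and a threshold of 0.05. Of these rows 12.6% were called higher and 30.1% lower in Exosc3-depleted cells, and the median row differed by log2 -0.27. Other scalings moved this median to between -0.05 and 0.03, so differences of lists are best read against it. Replicates lay further apart after depletion, the SD over rows of the log2 difference within a pair being 0.432 for Exosc3-depleted and 0.188 for Exosc3-present libraries. In RNA from a mixed culture a rise in a few cells and a smaller rise in every cell cannot be told apart.

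All 4 keratins rose in Exosc3-depleted cells, by 4.06-fold to 6.78-fold as ratios of mean FPKM, and 2 of the 5 regulators with a row, Hand1 and Ascl2, were called higher. Cdx2, Elf5 and Gata3 were under the mean FPKM needed for the test. Each of the 6 tested members was called higher, against 12.6% of all tested rows. Their groups did not overlap, which held for 22.2% of tested rows in this direction. Hand1 reached the test only through its level in Exosc3-depleted cells, so the count of tested members is not independent of their rise. The plot of FPKM by library shows the gap between keratins and regulators.

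**Figure D1:**
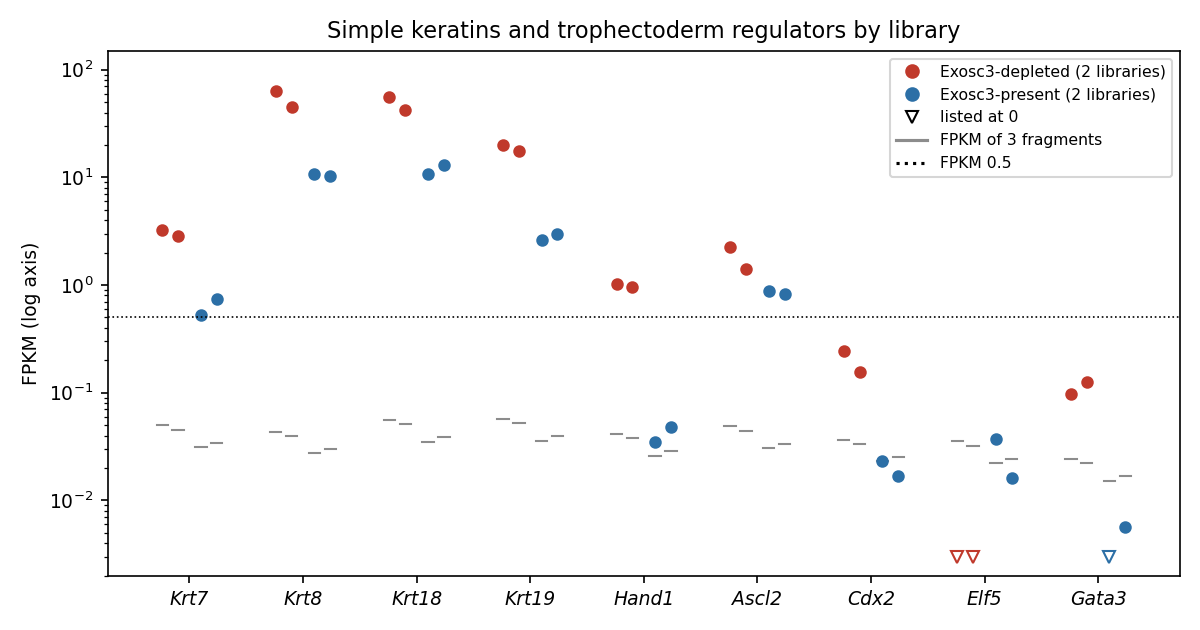
FPKM on a log axis for the 9 members with a row, 1 point per library, Exosc3-depleted (red) left of Exosc3-present (blue). Grey ticks mark the FPKM that 3 fragments would give, open triangles a value listed at 0, and the dotted line FPKM 0.5; Krt8 and Krt18 exceed 40 FPKM in both Exosc3-depleted libraries, while Cdx2, Elf5 and Gata3 stay under 0.5 FPKM in all 4.

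Krt8 (uc007xui.1), the type II chain of the earliest embryonic keratin pair, was at 63.0 and 45.3 FPKM in Exosc3-depleted cells and 10.8 and 10.2 FPKM in Exosc3-present cells. Both Exosc3-depleted libraries were well above both Exosc3-present ones. The means were 54.2 ± 12.5 and 10.5 ± 0.395 FPKM (SD, n = 2 each), and the fitted log2 difference was 2.29 (SE 0.21, limma adjusted p = 0.000465). These values rest on 4331 and 3434 fragments in Exosc3-depleted libraries and 1184 and 1019 in Exosc3-present libraries. A larger rise than that of Krt8 was fitted for 0.996% of tested rows.

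Krt18 (uc007xuj.2), its type I partner, was at 55.2 and 41.9 FPKM in Exosc3-depleted cells and 10.8 and 13.1 FPKM in Exosc3-present cells. Both genes of the pair thus rose and were highest in Exosc3-depleted replicate 1, as were the other tested members. Krt18 averaged 48.5 ± 9.38 and 11.9 ± 1.64 FPKM in Exosc3-depleted and Exosc3-present cells (SD, n = 2 each), with a log2 difference of 1.97 (SE 0.21, limma adjusted p = 0.00075). The ratio of Krt8 to Krt18 FPKM was 1.14 and 1.08 in Exosc3-depleted libraries and 1.0 and 0.78 in Exosc3-present libraries. RefSeq places the 2 genes next to each other, with 0 coding genes between them. Both have processed pseudogenes in the mouse, and how the authors' counting treated fragments shared with these copies is not given in the sources used here.

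Krt19 (uc007lkm.1), a type I chain that can pair with Krt8 or Krt7, had the largest fitted difference of the members. It was at 20.2 and 17.5 FPKM in Exosc3-depleted cells and 2.60 and 2.95 FPKM in Exosc3-present cells. Its means of 18.8 ± 1.90 and 2.78 ± 0.252 FPKM (SD, n = 2 each) gave a log2 difference of 2.56 (SE 0.19, limma adjusted p = 0.000286). The ratio of Krt18 to Krt19 FPKM was 2.74 and 2.40 in Exosc3-depleted libraries and 4.15 and 4.44 in Exosc3-present libraries, so Krt19 made up more of the type I member RNA after depletion.

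Krt7 (uc007xtd.2), the type II chain of simple ducts and trophoblast, was the lowest keratin member. It was at 3.26 and 2.87 FPKM in Exosc3-depleted cells and 0.528 and 0.742 FPKM in Exosc3-present cells. The fitted log2 difference was 1.66 (SE 0.19, limma adjusted p = 0.000963), on means of 3.07 ± 0.276 and 0.635 ± 0.151 FPKM (SD, n = 2 each). Krt8 FPKM was 19.32 and 15.8 times that of Krt7 in Exosc3-depleted libraries and 20.4 and 13.77 times in Exosc3-present libraries, ranges that overlap. Summed by chain type, Krt7 and Krt8 came to 66.2 and 48.2 FPKM in Exosc3-depleted cells and 11.3 and 11 FPKM in Exosc3-present cells. The type I sum of Krt18 and Krt19 was 75.3 and 59.4 FPKM in Exosc3-depleted cells and 13.4 and 16.1 FPKM in Exosc3-present cells, above the type II sum in all 4 libraries.

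Hand1 (uc007jaf.1), a basic helix-loop-helix factor of trophoblast giant cells, had the largest ratio among the tested members. It was at 1.02 and 0.954 FPKM in Exosc3-depleted cells and 0.0346 and 0.0477 FPKM in Exosc3-present cells, or 74 and 76 fragments against 4 and 5. Both Exosc3-depleted libraries lay close together and far above both others. The ratio of mean FPKM was 24.0, while the fitted log2 difference was 1.46 (SE 0.14, limma adjusted p = 0.000547), since adding 0.5 compresses a low value. On recovered fragments limma-voom gave log2 4.46, and with pseudocounts of 0.1 and 1 the differences were 2.95 and 0.93. Whether Hand1 moved more or less than the keratins therefore depends on the scale. Per length, its level after depletion (0.989 FPKM on average) stayed below that of Krt7 (3.07 FPKM), the lowest keratin member.

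Ascl2 (uc009koj.2), an imprinted basic helix-loop-helix factor needed for the spongiotrophoblast, was at 2.25 and 1.40 FPKM in Exosc3-depleted cells and 0.877 and 0.820 FPKM in Exosc3-present cells. The groups did not overlap, but the lower Exosc3-depleted library stood nearer to the Exosc3-present pair than to its own partner. The log2 difference of 0.76 (SE 0.22, limma adjusted p = 0.028) was the smallest among the tested members, and 9.84% of tested rows had a larger one. The call ended without Exosc3-present replicate 1 (adjusted p = 0.129), without Exosc3-present replicate 2 (0.188), with quantile normalization (0.0501) and with no filter on low values (0.0725). It held in the other 12 of 16 settings, and without Exosc3-depleted replicate 1 the difference was 0.50.

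The first regulators of the lineage stayed near 0. Cdx2 (uc009anz.1), the homeobox factor that specifies the trophectoderm, was at 0.245 and 0.156 FPKM in Exosc3-depleted cells and 0.0230 and 0.0169 FPKM in Exosc3-present cells. These are 20 and 14 fragments against 3 and 2, and the groups did not overlap. Over each group's summed depth the Exosc3-depleted rate was 9.86 times the Exosc3-present one (exact 95% interval 3.84 to 32.3, counting error only). When every row above 0 was tested, Cdx2 was called higher (log2 0.43, limma adjusted p = 0.0158), as were 11.3% of the 15471 rows in that fit, while 18.7% were called lower.

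Gata3 (uc008ihf.1), a zinc finger factor that acts beside Cdx2, was at 0.0980 and 0.126 FPKM in Exosc3-depleted cells, and was listed at 0 and 0.00563 FPKM in Exosc3-present cells. The fragments numbered 12 and 17 in Exosc3-depleted libraries and 0 and 1 in Exosc3-present libraries. The ratio of rates was 42.0, with an exact 95% interval of 6.97 to 1720, so its size is hardly bounded from above. In the fit of every row above 0 Gata3 was called higher (log2 0.28, limma adjusted p = 0.00968). Among rows above 0 that were too low for the main test, 30.5% had groups that did not overlap in this direction.

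Elf5 (uc008liv.2), the ETS factor of trophoblast stem cells, had all its fragments in Exosc3-present cells. It was listed at 0 in both Exosc3-depleted libraries and at 0.0371 and 0.0163 FPKM in Exosc3-present libraries, from 5 and 2 fragments. At these depths 3 fragments of Elf5 would be 0.0356 and 0.0323 FPKM in the Exosc3-depleted libraries, which is about the level seen in Exosc3-present replicate 1. The exact 95% interval of the rate ratio, Exosc3-depleted over Exosc3-present, ran from 0 to 1.01 and only just included 1, so a difference was narrowly not detected. None was called in the fit of every row above 0 (log2 -0.07, limma adjusted p = 0.139). Among the low rows 24.2% had groups that did not overlap in this direction.

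By level, the order in Exosc3-depleted cells was Krt8, Krt18, Krt19, Krt7, Ascl2, Hand1, Cdx2, Gata3 and Elf5, and only Krt8 and Krt18 overlapped as neighbours. In Exosc3-present cells Krt18 and Krt8 led with values that nearly touched, followed by Krt19, Ascl2, Krt7, Hand1, Elf5, Cdx2 and Gata3. There Hand1, Elf5 and Cdx2 could not be ranked, at 2 to 5 fragments per library. The 4 keratins summed to 142 and 108 FPKM in Exosc3-depleted cells and 24.7 and 27.0 FPKM in Exosc3-present cells. The 5 regulators with a row summed to 3.61 and 2.64 FPKM in Exosc3-depleted cells and 0.971 and 0.906 FPKM in Exosc3-present cells. Fitted log2 differences ran from 1.66 to 2.56 for keratins and were 0.76 and 1.46 for the 2 tested regulators. Adding 0.5 compresses such differences for low genes. As ratios of mean FPKM, keratins rose 4.06-fold to 6.78-fold, Hand1 24.0-fold and Ascl2 2.15-fold. Rates over summed depth rose 9.86-fold for Cdx2 and 42.0-fold for Gata3, on few fragments, while Elf5 had no fragments after depletion. Which kind of gene moved more thus depends on scale and gene, and the difference between the 2 kinds was not tested.

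The make-up of keratin RNA also differed, since the 2 other abundant keratins of these cells fell. Krt17, a type I keratin known from injured and fast-growing epidermis, was at 1.56 and 1.21 FPKM in Exosc3-depleted cells and 13.0 and 10.1 FPKM in Exosc3-present cells. It was the highest of all keratins in Exosc3-present replicate 1. Its log2 difference was -2.67 (SE 0.21, limma adjusted p = 0.000346), and its mean FPKM, without the added 0.5, was 8.33 times as high in Exosc3-present cells. Krt42, a mouse type I keratin close to Krt17 in sequence, was at 2.82 and 1.97 FPKM in Exosc3-depleted cells and 9.56 and 8.59 FPKM in Exosc3-present cells (log2 -1.74, limma adjusted p = 0.0013).

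These 2 were the only other keratins with a mean FPKM of at least 0.5, out of 41 other keratin rows, and both were called lower, against 30.1% of all tested rows. Neither overlapped between groups, as for 50.9% of tested rows in this direction. Fragments may be shared among Krt17, Krt42, Krt14 and Krt16, which are similar in sequence, so the split among them is uncertain. The 4 members made up 95.4% and 95.3% of all keratin FPKM in Exosc3-depleted libraries and 50.7% and 57.0% in Exosc3-present libraries. Krt17 and Krt42 made up 2.95% and 2.82% in Exosc3-depleted libraries and 46.4% and 39.5% in Exosc3-present libraries. All keratin rows together came to 148 and 113 FPKM in Exosc3-depleted cells and 48.7 and 47.4 FPKM in Exosc3-present cells.

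**Figure D2:**
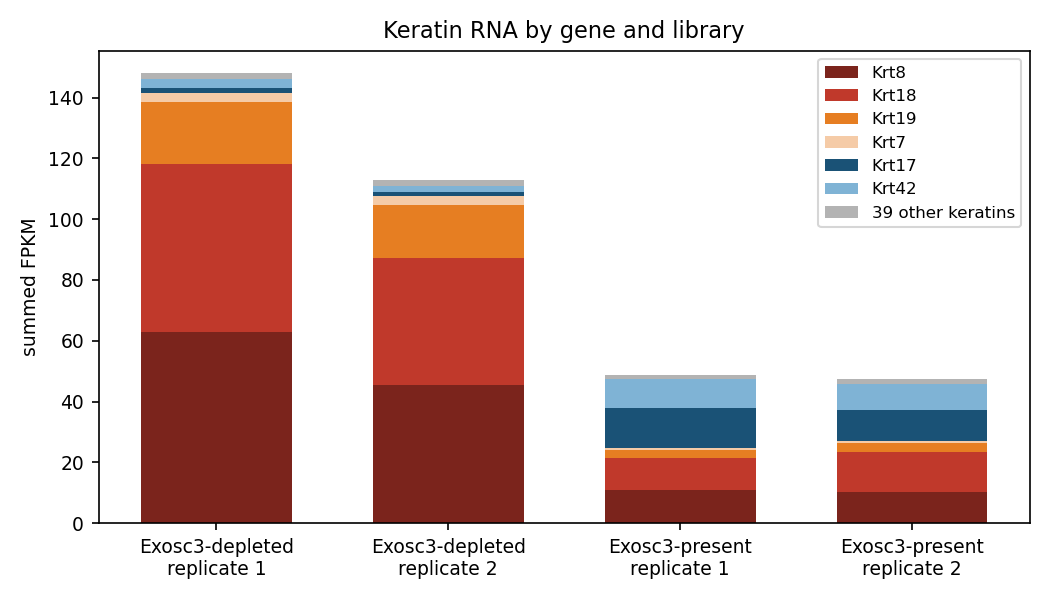
Summed FPKM of keratin genes in each library, stacked by gene, with Exosc3-depleted libraries on the left. The total is 148 and 113 FPKM in Exosc3-depleted libraries and 48.7 and 47.4 FPKM in Exosc3-present libraries, where Krt17 and Krt42 (blue) hold 46.4% and 39.5% of it.

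In gene order the 2 directions lay side by side. RefSeq lists 25 of the 45 keratin rows on chromosome 11 and 20 on chromosome 15. At 1 end of the chromosome 11 cluster Krt13, Krt15 and Krt19 are followed by Krt9, Krt14, Krt16, Krt17 and Krt42. In the fit of every row above 0, Krt13, Krt15 and Krt19 were called higher, and Krt14, Krt16, Krt17 and Krt42 lower, while Krt9 was at 0 in all 4 libraries. Only 3 coding genes, Krt9, Krt14 and Krt16, separate Krt19 from Krt17.

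Krt13, a keratin of moist stratified epithelia, was at 1.04 and 0.562 FPKM in Exosc3-depleted cells and 0.100 and 0.110 FPKM in Exosc3-present cells (log2 1.08, limma adjusted p = 0.0187). Krt14, the type I chain of basal epidermis, was at 0.142 and 0.144 FPKM in Exosc3-depleted cells and 0.445 and 0.567 FPKM in Exosc3-present cells (log2 -0.64, limma adjusted p = 0.0113). Its usual partner Krt5, on chromosome 15, moved the opposite way, with 28 and 15 fragments in Exosc3-depleted cells and 1 and 1 in Exosc3-present cells (log2 0.55, limma adjusted p = 0.027). In this fit 5 other keratins were called higher and 6 lower out of 31 above 0, beside 11.3% higher and 18.7% lower of all 15471 rows. Another 10 keratin rows were at 0 throughout. Several of these calls rest on few fragments. Krt36 was called higher on as few as 1 and 1 fragments in Exosc3-depleted libraries and 0 and 0 in Exosc3-present libraries. Its recovered length of 415 bases is the shortest that fits, and a longer one would give more fragments in the Exosc3-depleted libraries. For Krt15 these were 6 and 7 against 2 and 3. The grouping by position was seen in the values and not tested.

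**Figure D3:**
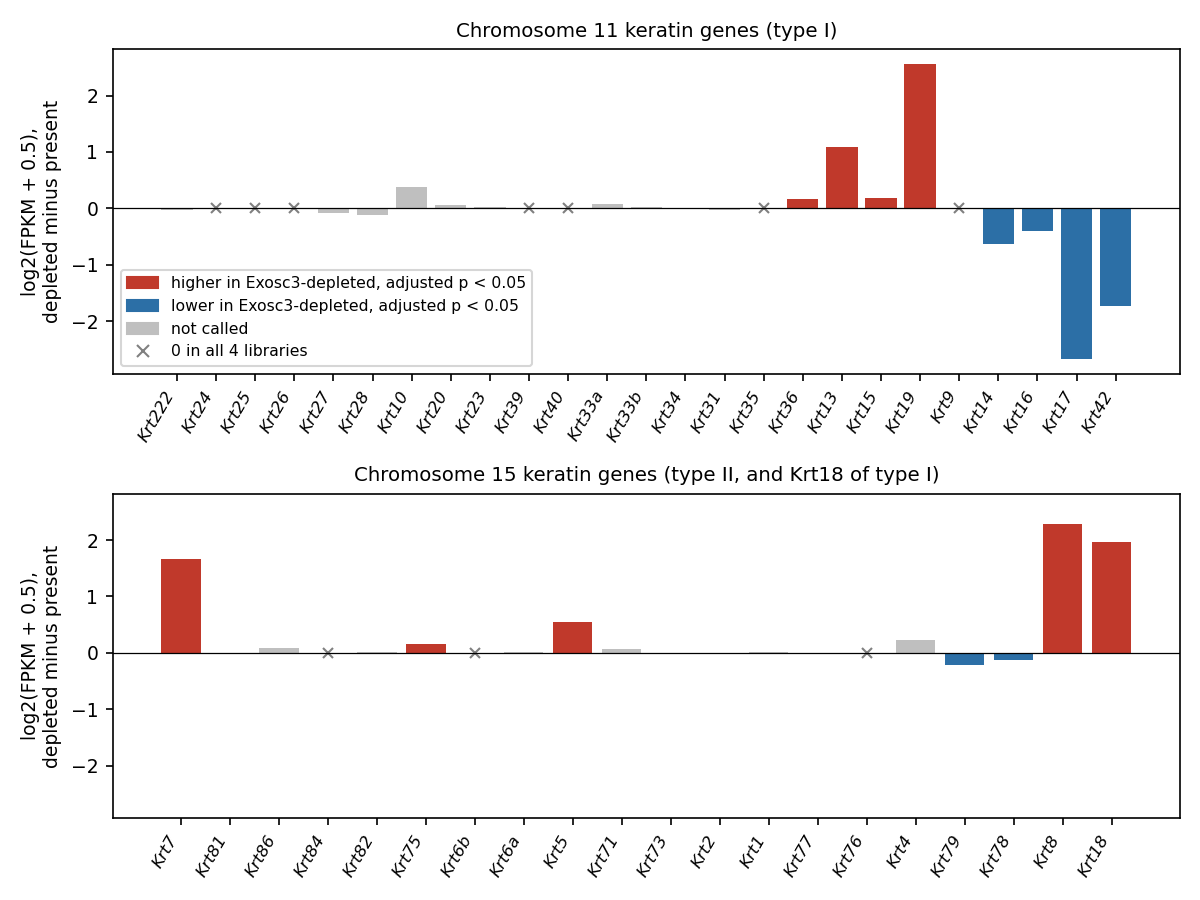
Difference in log2(FPKM + 0.5), Exosc3-depleted minus Exosc3-present, for 45 keratin genes in RefSeq gene order on 2 chromosomes, from the fit of every row above 0. Red and blue bars were called higher and lower in Exosc3-depleted cells; the high bars of Krt19 (2.56) and the low bars of Krt17 (-2.67) and Krt42 (-1.74) lie near the same end of the chromosome 11 cluster.

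Other genes of trophoblast went both ways. Of 36 further trophoblast genes 27 had a row and 18 were tested, of which 6 rose, 7 fell and 5 did not pass, beside 12.6% higher and 30.1% lower among all tested rows. Their median log2 difference was 0.06, against -0.27 for all tested rows. Of the 6 that rose, Fgfr2 and Rhox6 (0.451 and 0.341 FPKM in Exosc3-present cells) reached the test only through their Exosc3-depleted level. Of the 7 that fell, Eomes (0.379 FPKM in Exosc3-depleted cells) reached it only through its Exosc3-present level. With the filter on the Exosc3-present libraries alone, which keeps Eomes, 4 of 15 were higher and 7 lower, beside 823 and 2932 of 9130 rows. Id2, an inhibitor of helix-loop-helix factors present in trophoblast progenitors, was at 5.78 and 6.74 FPKM in Exosc3-depleted cells and 1.5 and 1.67 FPKM in Exosc3-present cells (log2 1.70, limma adjusted p = 0.000915). Cdh3, the P-cadherin gene of placenta and other epithelia, was at 43.5 and 44.5 FPKM in Exosc3-depleted cells and 13.8 and 16.1 FPKM in Exosc3-present cells (log2 1.53, adjusted p = 0.000941). Both genes are also active outside the trophoblast.

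Fgfr2, a receptor for fibroblast growth factors in trophoblast, rose as well (log2 1.47, limma adjusted p = 0.0023). Phlda2, an imprinted gene that limits placental growth, fell to 14.7 and 10.6 FPKM in Exosc3-depleted cells, against 39.7 and 40.5 FPKM in Exosc3-present cells (log2 -1.64, adjusted p = 0.0013). Esrrb, a nuclear receptor gene shared by trophoblast stem cells and embryonic stem cells, fell by 1.32 on the log2 scale (adjusted p = 0.00118). Eomes, the T-box factor of trophoblast stem cells, was at 0.301 and 0.456 FPKM in Exosc3-depleted cells and 0.656 and 0.965 FPKM in Exosc3-present cells (log2 -0.57, limma adjusted p = 0.0426). It averaged 0.379 FPKM in Exosc3-depleted cells and reached the test only through its level in Exosc3-present cells, so its call is not independent of that level. The call of Eomes ended in 6 of 16 settings, among them the fit with no filter on low values (limma adjusted p = 0.0732). The placental hormone gene Prl3d1 and Tpbpa, a spongiotrophoblast marker, were at 0 in all 4 libraries.

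As a check of cell type, 4 of 5 defining trophectoderm markers (Cdx2, Elf5, Eomes, Gata3) had a row and summed to 0.644 and 0.737 FPKM in Exosc3-depleted cells and 0.716 and 1.0 FPKM in Exosc3-present cells. Their summed level overlapped between groups, and the rises of Cdx2 and Gata3 stood beside the lower Eomes. Markers of primitive endoderm, another early epithelium that holds simple keratins, moved with the keratins. Of 9 such genes 7 were tested and 6 rose, beside 12.6% of all tested rows, and the sum of the 9 was 90.8 and 93.2 FPKM in Exosc3-depleted cells and 34.9 and 47.0 FPKM in Exosc3-present cells, with none at 0. Most of that sum was Lamb1 and Col4a1, while Gata6 was at 1.23 ± 0.286 FPKM in Exosc3-depleted cells and 0.456 ± 0.00314 FPKM in Exosc3-present cells (SD, n = 2 each). Sox17 and Pdgfra averaged 0.229 and 0.284 FPKM in Exosc3-present cells. Gata6, Sox17 and Pdgfra thus reached the test only through their level in Exosc3-depleted cells, so the count of 6 is not independent of their rise. Of the 6, Sox17 was called in all 15 settings that held it and Col4a1 in all 17. Gata6, Gata4, Pdgfra and Lamb1 each lost their call when either Exosc3-present library was left out. Their largest adjusted p was 0.0759 for Gata6, 0.162 for Gata4 and 0.158 for Pdgfra without replicate 2, and 0.393 for Lamb1 without replicate 1. Their part in the keratin result was not tested.

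For surface ectoderm, 5 of 6 markers had a row and summed to 8.28 and 8.81 FPKM in Exosc3-depleted cells and 4.55 and 5.14 FPKM in Exosc3-present cells. Nearly all of this was Grhl3 (log2 0.83, limma adjusted p = 0.0108; 0.205 without Exosc3-present replicate 1), and the defining factor Trp63 was at 0 in all 4 libraries. Fibroblast markers summed to 2.85 and 1.86 FPKM in Exosc3-depleted cells and 3.71 and 3.59 FPKM in Exosc3-present cells, with Dcn, Lum and Postn at 0 in every library. Of the 3 tested, Twist1 rose (log2 1.17, limma adjusted p = 0.00429) and Thy1, at 0.151 and 0.206 FPKM in Exosc3-depleted cells and 2.39 and 2.09 FPKM in Exosc3-present cells, fell (log2 -2.01, limma adjusted p = 0.000351). Twist1 averaged 0.233 FPKM in Exosc3-present cells and Thy1 0.179 FPKM in Exosc3-depleted cells. Each reached the test only through the group where it was high, so these calls are not independent of that level.

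Of 10 genes for factors of embryonic stem cell identity, 7 had a row, and all 7 were tested. Of these 6 fell and none rose, beside 30.1% of all tested rows called lower and 12.6% higher, and the median log2 difference was -1.39. Nr0b1 was at 10.2 ± 1.48 FPKM in Exosc3-depleted cells and 34.0 ± 0.954 FPKM in Exosc3-present cells (SD, n = 2 each), a log2 difference of -1.69 (limma adjusted p = 0.000811), and Klf4 (-1.57) and Klf2 (-1.09) also fell. Pou5f1, the gene for the factor that represses Cdx2, was at 350 ± 90.0 FPKM in Exosc3-depleted cells and 452 ± 26.5 FPKM in Exosc3-present cells (log2 -0.39, limma adjusted p = 0.167). It was thus still far above every member of the keratin and regulator set.

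Since Tead4 could not be followed, its relatives and partners were. Of 20 such genes 15 had a row and 11 were tested, of which 4 rose and 1 fell, beside 12.6% higher and 30.1% lower among all tested rows, with a median log2 difference of -0.03. Of the 4 that rose, Lats2 (log2 0.63, limma adjusted p = 0.0472) was called in 9 of 15 settings. It averaged 0.282 FPKM in Exosc3-present cells and reached the test only through its level in Exosc3-depleted cells. Tead2, which with Tead3 was 1 of 2 TEAD genes with a row under its symbol, fell to 20.9 and 18.1 FPKM in Exosc3-depleted cells, against 62.8 and 55.4 FPKM in Exosc3-present cells (log2 -1.57, limma adjusted p = 0.00091). Tead3, known from the placenta, was at 2.50 and 2.28 FPKM in Exosc3-depleted cells and 0.838 and 0.754 FPKM in Exosc3-present cells (log2 1.15, adjusted p = 0.00251). Amotl2, an angiomotin that binds YAP, rose by log2 1.85 (adjusted p = 0.000721), and its relative Amotl1 by 1.16 (adjusted p = 0.0172), a call that ended without Exosc3-present replicate 1 (0.052) and with no filter on low values (0.0556). Amotl1 was at 2.79 and 5.41 FPKM in the 2 Exosc3-depleted libraries. The coactivator gene Yap1 differed by log2 -0.24 (adjusted p = 0.42).

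Genes for other intermediate filament and lamina proteins, filament linkers and junction proteins went both ways. Of 23 filament and desmosome partners 22 had a row and 19 were tested; 5 rose, 4 fell and 10 did not pass, beside 12.6% higher and 30.1% lower among all tested rows, and the median log2 difference was 0.17. Fam83h, which binds keratin filaments, was at 19.9 and 18.2 FPKM in Exosc3-depleted cells and 6.70 and 6.27 FPKM in Exosc3-present cells (log2 1.49, limma adjusted p = 0.0011). The linker gene Plec rose as well (log2 0.61, adjusted p = 0.027; 0.326 without Exosc3-present replicate 1). The other intermediate filament genes Nes and Vim rose by log2 2.34 and 1.27, so filament genes outside the keratins rose too, while Des differed by 0.16 (adjusted p = 0.508). Among desmosome genes, Pkp3 rose (log2 0.79, adjusted p = 0.0199; 0.214 without Exosc3-present replicate 2) and the cadherin Dsg2 fell (-1.12, adjusted p = 0.00743; 0.0537 with scaling without the 50 highest rows). The nuclear lamina genes Lmnb2 (-1.28) and Lmnb1 (-0.86) fell, and the adhesion gene Epcam fell by 0.78. Lmnb1 and Epcam lost their calls under each of the 3 other scalings and without Exosc3-present replicate 2 (adjusted p = 0.129 for Lmnb1 and 0.181 for Epcam), and Epcam also without Exosc3-present replicate 1 (0.0869).

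**Figure D4:**
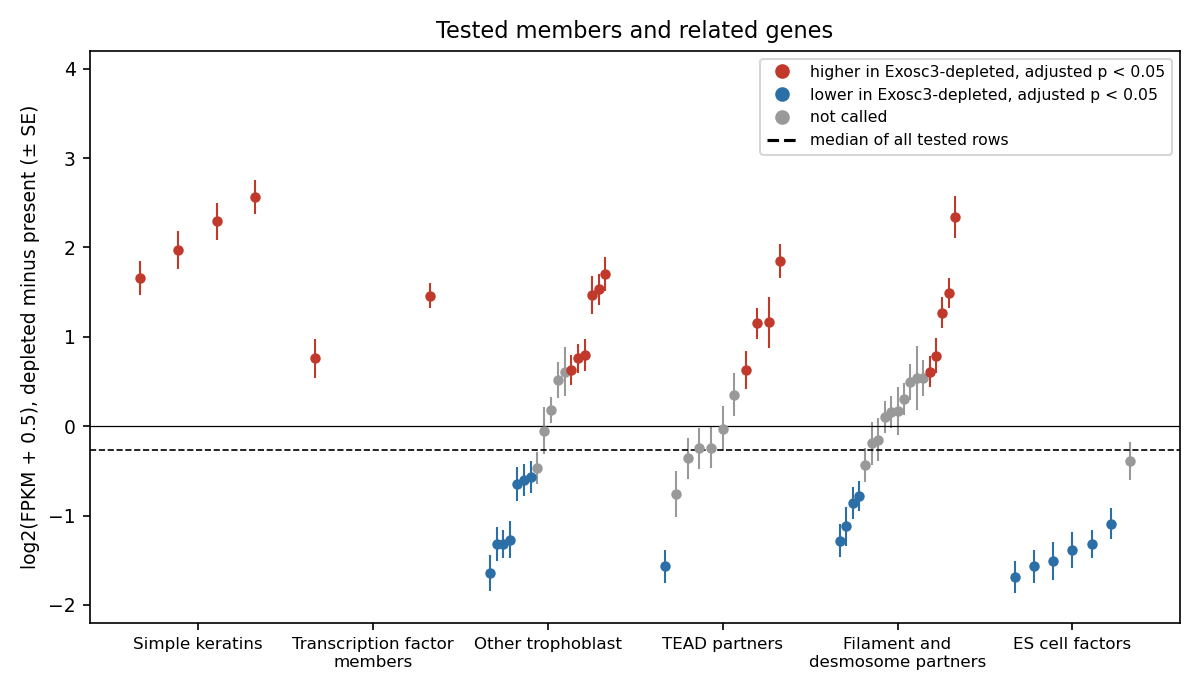
Difference in log2(FPKM + 0.5) with its SE, Exosc3-depleted minus Exosc3-present, for tested genes of 6 sets, 1 point per gene sorted within its set. The 4 simple keratins lie between 1.66 and 2.56, the other trophoblast, TEAD and filament sets lie on both sides of 0, 6 of 7 embryonic stem cell factors are called lower, and the dashed line is the median of all tested rows (-0.27).

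The genes whose profile over the 4 libraries was nearest to the mean of the 4 keratins were Clu, B930041F14Rik, Ctxn1, Gm5617 and Ptk7. Their Euclidean distances on centred log2(FPKM + 0.5) were 0.10 to 0.13, whereas the keratins themselves lay 0.18 (Krt18) to 0.48 (Krt7) from their mean. Clu, the gene for the secreted chaperone clusterin, was at 25.3 and 20.3 FPKM in Exosc3-depleted cells and 4.66 and 5.61 FPKM in Exosc3-present cells. Ptk7, a receptor-like protein of planar cell polarity, was at 104 and 79.5 FPKM in Exosc3-depleted cells and 21.4 FPKM in both Exosc3-present libraries. With 4 libraries in 2 groups, a gene with a like difference between the groups is near by construction.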

How the data were processed

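Stranded, ribosomal RNA-depleted, paired-end libraries were made from total RNA (RIN 8.5 or above), per the labels' protocols. The authors deposited FPKM values per gene model and library; the submitters' processing notes name mm9, Bowtie2, STAR, Picard, bedtools and edgeR, and the step that made the FPKM values, like the use of strand in counting, is not given in the sources used here. Coordinates of printed sequences are RefSeq's on GRCm38.p6, and no other coordinates are given. Differences were tested two-sided in R 4.3.3 by limma 3.58.1, trend option on, on log2(FPKM + 0.5) for rows averaging 0.5 FPKM or more, with 2 residual and 4.98 prior degrees of freedom. The limma fit and the recovery of fragments were each tested on simulated data. Fragments were recovered as whole numbers (tolerance 0.004 of a fragment) from FPKM, with whole-base lengths; all 15471 rows above 0 could be fitted with the shortest length that gave whole fragments. For members the recovered lengths were compared with GENCODE M21 transcripts: Gata3 (3215 bases) equalled one, Hand1, Ascl2, Elf5 and Krt18 were within 37 bases of the nearest, Cdx2, Krt8 and Krt19 were 116, 153 and 203 bases shorter, and Krt7 (1586) had no near match, the nearest being 690 bases. The lengths bear on fragment numbers only, not on FPKM. Lengths of other genes were not compared, and their fragment numbers are the smallest that fit. Intervals and floors (3 fragments) cover counting error only. Named genes are all members, the other tested keratins, the 4 smallest p-values of each list with those called against its majority, and the 5 nearest profiles; further genes named as examples were chosen after their values were seen. The members and lists were chosen with earlier results of these data known. Alternatives covered pseudocount, filter, scaling, trend, prior, limma-voom, a block for replicate number and leaving out each library.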

Additional observations from a re-analysis of the deposited data

How the results depend on the processing

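Alternatives were counted for 36 tested genes: the 6 tested members, Exosc3, and those the naming rule took from the lists, the keratins and the nearest profiles. They do not cover Cdx2, Elf5 and Gata3 or genes named as further examples, such as Eomes, Gata6 and Pkp3. List genes were taken mainly by smallest p, and the nearest profiles by a keratin-like difference. The tally thus says little of other genes, since these 36 were likely to keep their calls. Of their 566 values, 545 kept their direction and side of the threshold, 21 kept only the direction, and none reversed; Ascl2 was the only member among the 21. The number of members called higher was 3 of 3 when rows had to average 2 FPKM, and 5 to 6 with 1 library left out. With this stricter filter 667 rows were higher. Rows called lower numbered 1589 with median-of-ratios scaling, 1782 with quantile normalization and 1330 with scaling without the 50 highest rows, which moved the median row to log2 0.01, -0.05 and 0.03. With 1 library left out, 668 (without Exosc3-present replicate 2) to 2183 (without Exosc3-depleted replicate 1) rows were higher, and 1082 (without Exosc3-present replicate 2) to 4715 (without Exosc3-depleted replicate 2) lower. Against 1177 rows higher and 2806 lower in the main fit, 1756 were higher with median-of-ratios scaling, 1578 with quantile normalization and 1544 without the 50 highest rows. Other trophoblast genes called higher numbered 3 with the filter at 2, and 4 were lower with median-of-ratios scaling and with scaling without the 50 highest rows; with 1 library left out they were 3 to 7 higher and 4 to 9 lower. TEAD partners with the filter at 2 were 2 higher and 2 lower; with 1 library left out they were 2 to 5 higher and 1 to 5 lower. Filament and desmosome partners called higher were 8 with quantile normalization and 8 with scaling without the 50 highest rows; those lower were 2 with median-of-ratios scaling, 2 with quantile normalization and 1 with scaling without the 50 highest rows. With 1 library left out, 3 to 8 filament partners were higher and 2 to 7 lower. Other keratins were 5 higher and 6 lower with no filter on low values, since 31 were then tested. In that fit 11.3% of all rows were higher and 18.7% lower. The cause of the other shifts was not tested.

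With the replicate number as a block, the 6 tested members were called higher as without it, 2 TEAD partners were lower and 8 filament partners higher, and 1431 rows were higher and 3468 lower. Over the tested rows, the log2 difference of replicate 1 from replicate 2 in Exosc3-depleted libraries had a correlation of 0.24 with that in Exosc3-present libraries. The labels do not say that a number marks a shared culture. Depth limits Cdx2, Elf5 and Gata3, at 0 to 20 fragments per library.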
